A study of Mus musculus with 23 samples.

Results

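The 10 genes described here protect cells against oxidants and lipid peroxides: Slc7a11, Gclc, Gclm, Gsr, Txnrd1, Srxn1, Gpx1, Gpx4, Hmox1 and Nqo1. They were taken by name, with earlier results of these data known, from the 52143 genes of the deposited gene table, and each was followed through all 23 libraries. All 10 passed the filter on low counts and are among the 21124 genes tested. Retinal organoids, small balls of retinal tissue grown from stem cells, were made from 1 clone of mouse induced pluripotent stem cells carrying the rod reporter Nrl-GFP, which had been reprogrammed from wild-type embryonic fibroblasts with inducible lentiviral vectors. RNA came from neural retina dissected out of 12 organoids per sample, and directional mRNA libraries were sequenced.

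The groups differed in 3 ways: the fatty acid, the day and FGF1. From day 10 the organoids received docosahexaenoic acid (DHA), an omega-3 fatty acid with many double bonds, or linoleic acid (LA), an omega-6 fatty acid with fewer, each carried on bovine serum albumin (BSA), or BSA alone as the control. The dose of either fatty acid was read as 26 µM from labels that print the unit as M. At day 26, without FGF1, each of these 3 media had 2 libraries. At day 32 without FGF1 each had 3 libraries. At day 32 with fibroblast growth factor 1 (FGF1), given at 200 ng/ml from day 26, BSA and LA had 3 libraries each and DHA had 2. All groups shared 20% oxygen from day 10 after 5% before it, 2-mercaptoethanol (a thiol reductant) freshly added, N2 supplement, taurine, 9-cis retinal and insulin-like growth factor 1. From day 26 on, B27 without vitamin A, serum and amino acids were added in every group, so the day 32 libraries differ from the day 26 ones in age and in medium. The labels call the samples of a group biological replicates but do not say whether they came from separate differentiations, so the p-values measure the spread between these samples.

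Fatty acids with several double bonds are oxidised easily, and photoreceptor membranes are rich in DHA. Cells remove the resulting lipid peroxides with glutathione peroxidase 4, which spends glutathione, and glutathione in turn depends on imported cystine, which is reduced to cysteine, a ligase that joins cysteine to glutamate, and a reductase that recycles the oxidised form. Most of these genes can be switched on by the transcription factor NRF2 (gene Nfe2l2), which is held down by KEAP1 and competes with BACH1. Slc7a11 is also a target of ATF4, the factor of the amino acid stress response.

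The libraries fell into sets by depth. The deeper set held 12 libraries with 16.0 M to 20.5 M counts: the whole of day 26 plus the first 2 replicates of every FGF1 group. The other 11 libraries, with 10.4 M to 11.9 M counts, were the 9 of day 32 without FGF1 and the third FGF1 replicate of BSA and of LA, and 5 of them were left out by the authors from their normalised table. The shallower libraries also had more mitochondrial counts (5.55% to 12.5%, against 3.02% to 4.24%) and relatively fewer counts of GC-rich transcripts: the slope of log2 CPM, the count scaled to library size, on transcript GC content was −1.76 to −0.58 per 10 percentage points, against 0.19 to 0.43 in the deeper set. Media were therefore compared only within a stratum, meaning libraries of the same day, FGF1 state and library set (5 strata). Every day 32 library without FGF1 is a shallower one, so the deeper FGF1 libraries have no partner of their own set and day without FGF1. The 8 rod genes summed to 2525 to 9254 CPM in every library, the lowest values being at day 26, while the microglial markers Cx3cr1, P2ry12, Aif1, Csf1r and Tyrobp and the haemoglobin genes stayed under 1 CPM. The 8 microglial markers, these 5 among them, summed to 2.13 to 7.74 CPM. Some markers listed for other tissues were detected. The 8 pigment epithelium markers summed to 50.3 to 391.1 CPM, although Rpe65 and Best1 were under 1 CPM in every library. Rlbp1 in this list is also a Müller glia marker. The 8 mesenchymal markers summed to 26.1 to 490.9 CPM. The 5 endothelial markers summed to 139.6 to 415.5 CPM, with Cdh5 and Cldn5 under 1 CPM. The pigment epithelium and endothelial sums do not by themselves show that these tissues were present.

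Levels between genes were compared per length, as TPM, which divides each transcript's counts by its length. Gpx4 was the most abundant of the 10 in every stratum, at 647 ± 75.6 TPM (SD, n = 6) at day 26. Gpx1 followed at 119 ± 12.6 TPM, then Txnrd1 at 52.6 ± 5.17, Gclm at 41.2 ± 4.07, Gclc at 25.6 ± 3.57, Hmox1 at 24.4 ± 4.24, Gsr at 18.2 ± 1.59 and Srxn1 at 11.5 ± 2.78 TPM. Slc7a11 and Nqo1 were lowest, at 2.21 ± 0.48 and 2.19 ± 1.38 TPM. At day 26 the libraries of Hmox1 overlapped with those of Gclc and of Gsr, and those of Slc7a11 with those of Nqo1, so these neighbours do not differ beyond their spread. In the 6 shallower libraries that the authors kept the order differed: Gpx1 stood eighth (19.9 ± 14.7 TPM, SD, n = 6) where it had been second, Gclm second (59.4 ± 8.34 TPM) and Hmox1 seventh (17.3 ± 7.55 TPM). The plot of the members by library shows all values on the CPM scale, with library sizes adjusted by the trimmed mean of M values (TMM), on which the comparisons below were made.

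**Figure D1:**
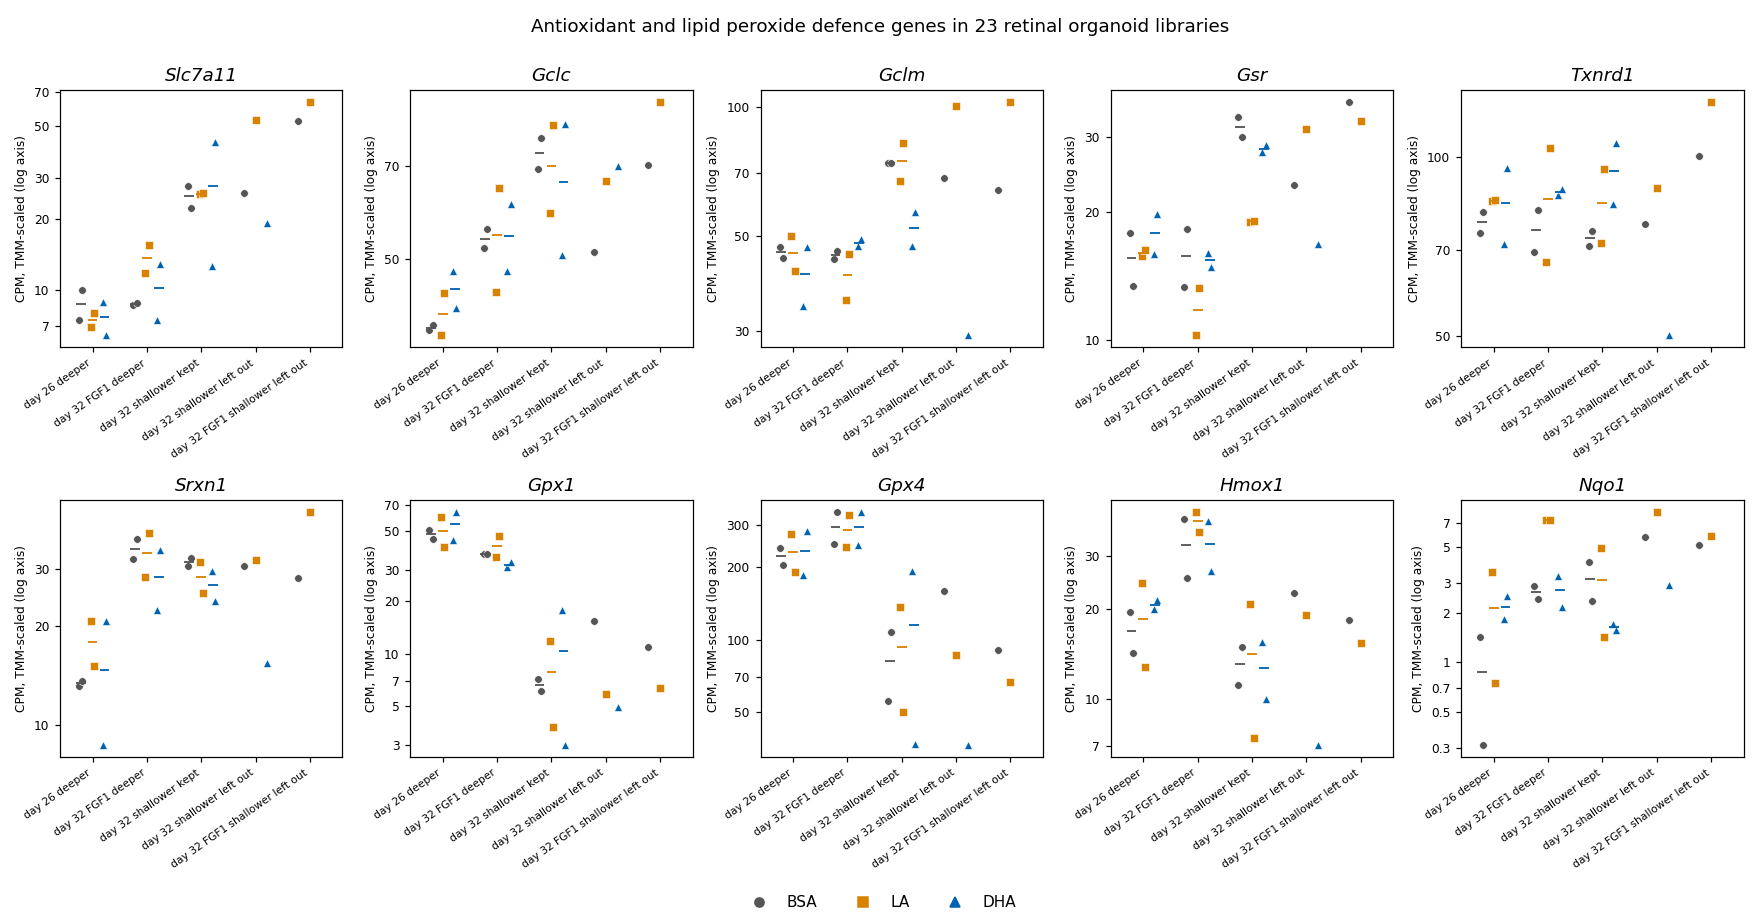
TMM-scaled CPM (log axis) of each of the 10 genes in 23 libraries, grouped by stratum and marked by medium; short bars are means of 2 libraries. Gpx1 lies between 30.9 and 64.2 CPM in the deeper libraries and between 3.02 and 17.7 CPM in the shallower ones, while the media overlap for most genes.

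Cystine import was represented by Slc7a11, the light chain of the cystine-glutamate exchanger. Slc7a11 ranged from 6.38 to 10.0 CPM at day 26, with a median of 7.66, and from 7.44 to 15.6 CPM in the 6 deeper FGF1 libraries, with a median of 10.3. Among the 6 kept libraries of the shallower set it ranged from 12.6 to 42.8 CPM. The 3 left-out libraries without FGF1 had 26.0 (BSA), 53.1 (LA) and 19.3 CPM (DHA), and the 2 with FGF1 had 52.3 (BSA) and 63.3 CPM (LA). Its transcripts are the longest of the 10 genes (8602 bases on average) and the lowest in GC content (40.8%). By these values the shallower libraries were higher, with 1 overlap: DHA replicate 2 at day 32 (12.6 CPM) was below the 2 highest deeper libraries. That library also had the GC slope nearest to 0 of the shallower set (−0.58). The part of GC content in the Slc7a11 values was not tested, and the sets also differ in day and FGF1 state.

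The start region of Slc7a11 is shown because it carries the element that ATF4 binds in amino acid stress. Start regions were taken from RefSeq (GRCm38.p6), which had an entry for 7 of the 10 genes, and the 250 bases before each start were searched on both strands. Slc7a11 lies on the minus strand of chromosome 3 (49892526 to 50443614), and the bases below run 5′ to 3′ on that strand, chr3:50443614-50443863, with the matches to TTGCATCA, the core of the amino acid response element, in capitals.
Slc7a11: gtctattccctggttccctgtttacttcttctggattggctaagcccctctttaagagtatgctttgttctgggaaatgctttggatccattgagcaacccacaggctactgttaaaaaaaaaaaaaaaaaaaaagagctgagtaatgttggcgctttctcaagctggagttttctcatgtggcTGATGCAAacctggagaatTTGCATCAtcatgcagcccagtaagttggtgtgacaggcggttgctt
The matches read TGATGCAA (66 to 59 bases before the start, the reverse complement) and TTGCATCA (47 to 40 bases before it). Of 32851 start regions of the same length, 0.791% hold this core. The ATF4 list of 15 genes is described with the day comparison below.

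Glutathione synthesis rests on Gclc, the catalytic subunit of glutamate-cysteine ligase, and Gclm, its modifier subunit. Gclc ranged from 37.8 to 47.9 CPM at day 26, 44.4 to 64.7 in the deeper FGF1 libraries and 50.7 to 88.5 across the shallower libraries. Gclm had medians of 45.8 CPM at day 26 (34.2 to 49.9) and 45.8 CPM with FGF1 (35.4 to 49.1). Without FGF1 at day 32, Gclm was 68.5, 74.1 and 74.0 CPM in the 3 BSA libraries. The 3 LA libraries had 100.8, 67.2 and 82.5 CPM, and the 3 DHA libraries 29.3, 47.4 and 56.8 CPM. All 3 DHA libraries were thus the lowest of their strata, and the DHA libraries did not overlap with the other media at this stage. The lowest, left-out DHA replicate 1, was not low for Gclm alone. It lay below the left-out BSA and LA libraries for every member but Gclc. Its log2 difference from LA was −1.45 for Slc7a11, −1.42 for Hmox1, −1.24 for Gpx4 and 0.08 for Gclc.

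For Gclm the start region is shown because this gene had the clearest separation by medium. It lies on the plus strand of chromosome 3 (122245557 to 122270732), and chr3:122245307-122245556 holds 1 match, in capitals, to TGACNNNGC, the core of the antioxidant response element through which NRF2 acts.
Gclm: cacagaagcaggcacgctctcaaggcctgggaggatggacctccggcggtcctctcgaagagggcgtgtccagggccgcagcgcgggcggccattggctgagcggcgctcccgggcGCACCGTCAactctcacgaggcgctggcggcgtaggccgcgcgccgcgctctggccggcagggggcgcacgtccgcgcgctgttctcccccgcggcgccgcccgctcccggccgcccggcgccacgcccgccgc
The match reads GCACCGTCA on this strand (134 to 126 bases before the start), the reverse complement of the core. This core is common, present in 10.2% of the 32851 start regions, and says nothing by itself about NRF2 binding. Txnrd1 had a match at the second of its 3 listed starts (GCTTTGTCA, 92 to 84 bases before it), and Nqo1, Gpx1 and Gpx4 had no match within these 250 bases. Hmox1, Gclc and Gsr had no entry.

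Recycling of disulfides is done by Gsr (glutathione reductase) and Txnrd1 (cytosolic thioredoxin reductase), while Srxn1 (sulfiredoxin) repairs overoxidised peroxiredoxins. Gsr ranged from 13.4 to 19.8 CPM at day 26, 10.3 to 18.2 in the deeper FGF1 libraries and 16.8 to 36.1 in the shallower libraries. Txnrd1 kept a similar level in both deeper strata, with 82.0 ± 8.66 CPM (SD, n = 6) at day 26 and 82.7 ± 13.6 CPM (SD, n = 6) with FGF1. In the shallower libraries Txnrd1 ranged from 50.2 to 123.9 CPM, and its lowest library was DHA replicate 1 at day 32. Srxn1 was the member with the clearest step between deeper strata, given with the day comparison below, and lay between 15.5 and 44.8 CPM in the shallower libraries.

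The peroxide-removing enzymes Gpx1, the abundant cytosolic glutathione peroxidase, and Gpx4, which reduces peroxides of membrane lipids, were the members most tied to the library set. Gpx1 ranged from 30.9 to 64.2 CPM in the 12 deeper libraries and from 3.02 to 17.7 CPM in the 11 shallower ones, with no overlap. Of all genes tested, 16.4% were likewise lower in every shallower library than in every deeper one, so Gpx1 was 1 of many. Gpx4 ranged from 185.7 to 341.1 CPM in the deeper libraries and from 36.6 to 193.6 CPM in the shallower ones, overlapping at DHA replicate 2 of day 32. These are the 2 members with the highest GC content (57.1% for Gpx4 and 55.7% for Gpx1) and the shortest transcripts (806 and 830 bases on average).

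Within the shallower libraries, Gpx4 and Gpx1 varied widely inside 1 medium. Without FGF1 at day 32, Gpx4 was 159.7, 55.9 and 107.7 CPM in BSA, 86.5, 136.9 and 50.2 CPM in LA, and 36.6, 193.6 and 37.1 CPM in DHA, so that DHA held both the highest and the lowest values. The DHA library with the highest Gpx4, replicate 2, had the slope nearest to 0 (−0.58). The DHA library with the steepest slope, replicate 3 (−1.76), had 37.1 CPM. Gpx1 in those same DHA libraries was 4.99, 17.7 and 3.02 CPM. The part of GC content in these values was not tested, and the plot of levels against the slope shows the pattern for 4 members.

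**Figure D2:**
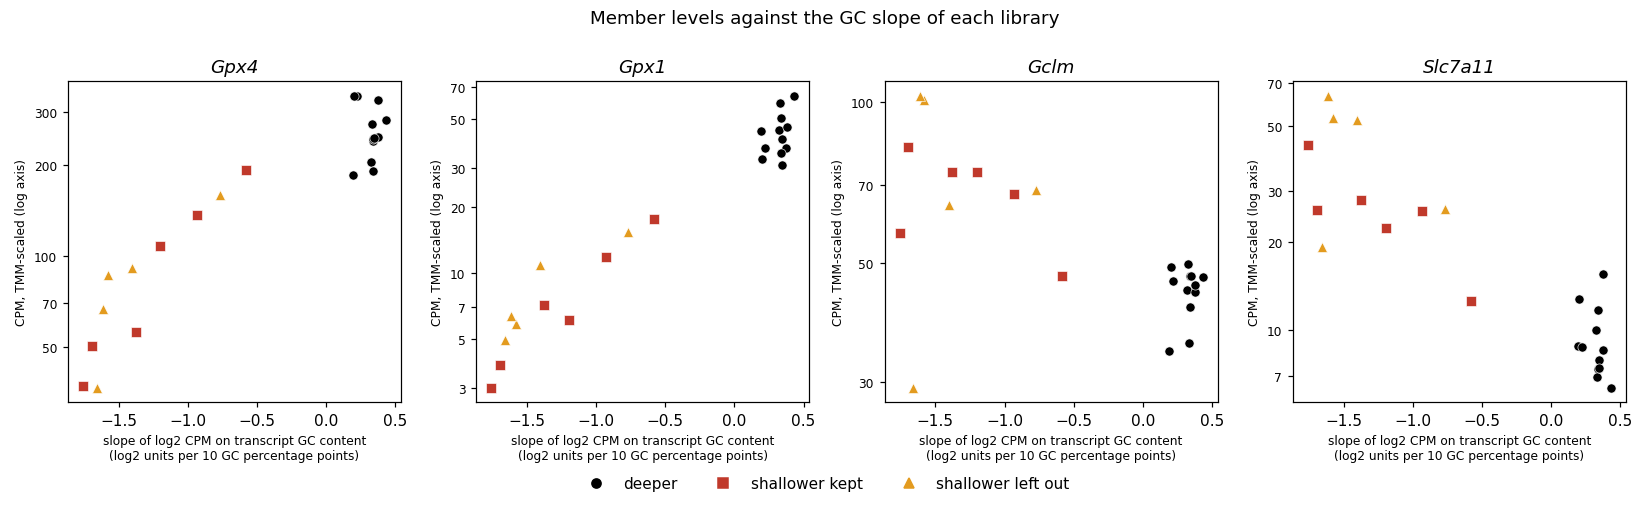
TMM-scaled CPM (log axis) of Gpx4, Gpx1, Gclm and Slc7a11 against the slope of log2 CPM on transcript GC content in each of 23 libraries, marked by library set. Gpx4 and Gpx1 tend to be lower in libraries with a more negative slope, though not in strict order, and Slc7a11 is lowest in the deeper libraries; for Gclm, DHA replicate 1 at day 32 (29.3 CPM) lies below the other libraries of similar slope.

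The shares of counts that kallisto assigned to single transcripts, which are estimates, also differed by library set. Gpx4 counts came mainly from Gpx4-207 (62.9% of the counts over all libraries) and Gpx4-202 (33.3%), yet Gpx4-202 held 18.8% to 54.6% in the deeper libraries and at most 2.85% in the shallower ones. Gpx1 was split between Gpx1-204 (57.2%) and Gpx1-201 (41.8%). The share of Gpx1-201 was 33.3% to 44.3% in the deeper libraries and 38.6% to 100% in the shallower ones. For Gclm, the long Gclm-201 (5589 bases, 42.1% GC) held a median of 56.0% in the deeper set and 87.4% in the shallower libraries that were kept. The short Gclm-206 (1002 bases, 54.2% GC) held a median of 24.3% in the deeper set and 2.23% in those libraries. Txnrd1-201 carried 56.9% to 78.2% of Txnrd1 counts in the deeper libraries and 76.0% to 95.9% in the shallower ones. Over all libraries Txnrd1-201 carried 76.9% of Txnrd1 counts and Slc7a11-201 89.9% of Slc7a11 counts, and each of the other members came at over 90% from 1 transcript.

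Heme and quinone breakdown is carried out by Hmox1 (heme oxygenase 1, which also releases iron) and Nqo1 (a quinone reductase). Hmox1 ranged from 12.8 to 24.3 CPM at day 26 and from 25.3 to 42.1 CPM in the deeper FGF1 libraries. In the shallower libraries it ranged from 7.05 to 22.6 CPM. Nqo1 had the fewest counts of the 10 genes, 6.01 to 142.1 estimated counts per library (0.31 to 8.19 CPM), so its values carry the widest intervals. Per length, Slc7a11 was lower than Nqo1 in the deeper set (median 2.66 against 3.48 TPM).

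The main question was whether DHA or LA changed these genes. No member passed the test in any of the 12 comparisons of media, and neither did any other gene: 0 of 21124 genes (0%) passed an adjusted p of 0.05 for any of the 3 pairs of media averaged within strata (DHA minus BSA, LA minus BSA, DHA minus LA) (edgeR quasi-likelihood test, Benjamini-Hochberg adjusted). At an unadjusted p under 0.05 there were 414 genes (1.96%), 639 genes (3.02%) and 956 genes (4.53%) in the same order. DESeq2 called 3, 4 and 3 genes and limma voom 0, none of them members. The 10 members had a median log2 difference of −0.09 for DHA against BSA (all genes 0.01), 0.11 for LA against BSA (all genes 0.00) and −0.13 for DHA against LA (all genes 0.02).

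The intervals say how large a change could have gone unseen. For Gclc, DHA minus BSA was 0.10 on the log2 scale, with a 95% interval from −0.15 to 0.35. Txnrd1 was as tight, at 0.13 (−0.13 to 0.39). For Gpx4 the same difference was −0.13 (−0.79 to 0.52) and for Hmox1 −0.14 (−0.63 to 0.35), and Slc7a11 was at −0.01 (−0.48 to 0.47). For Nqo1 it was −0.07 (−0.90 to 0.76). A change of 1 log2 unit lies outside each of these intervals, which average over the strata. Smaller changes were not detectable for the wider ones. Other intervals do include such a change: Nqo1 for LA minus BSA ran from −0.02 to 1.49. Within day 26 alone, DHA minus BSA ran from −1.30 to 1.44 for Gpx4 and from −1.11 to 1.48 for Gpx1. The plot of differences between media gives all 30 estimates.

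**Figure D3:**
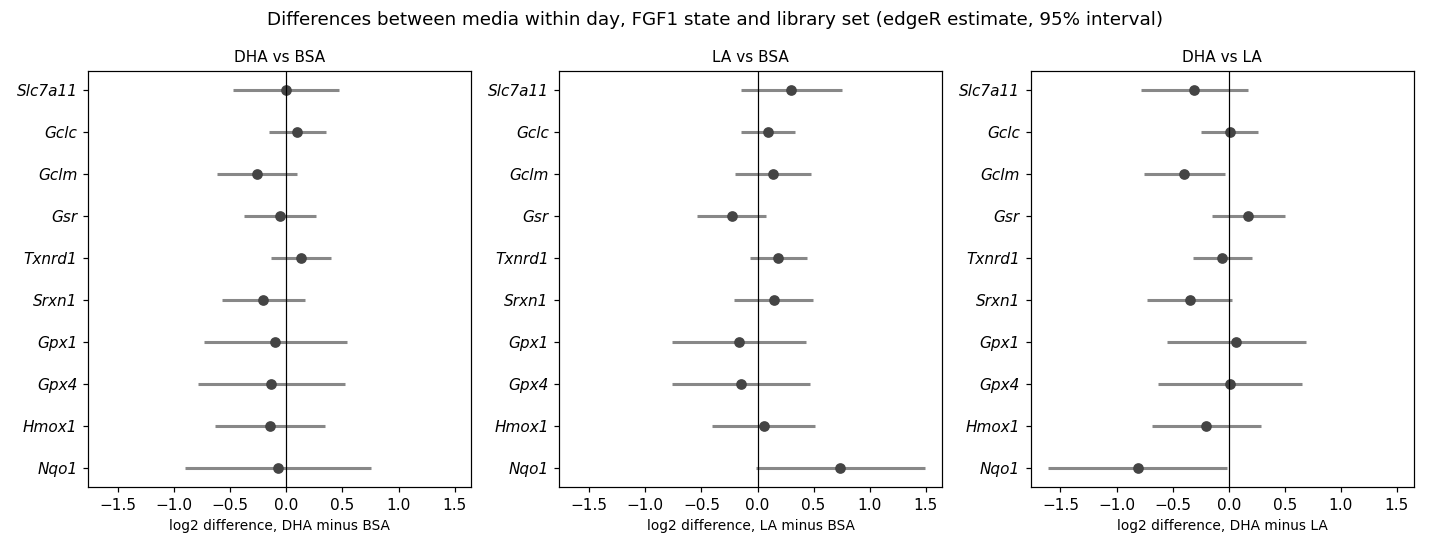
edgeR log2 differences between media for the 10 genes, averaged within strata over 23 libraries, with 95% intervals; grey marks an adjusted p over 0.05, as in all cases here. Most estimates lie close to 0; Nqo1 is at 0.74 for LA against BSA and at −0.81 for DHA against LA, with the widest intervals.

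Gclm and Nqo1 were the only members with an unadjusted p under 0.05 in DHA against LA within strata, where 4.53% of all genes reached it. DHA minus LA was −0.40 for Gclm (SE 0.17, adjusted p = 1.00) and −0.81 for Nqo1 (SE 0.38, adjusted p = 1.00), by edgeR's test. Neither passed the adjusted threshold. Against BSA, Gclm differed by −0.26 with DHA (SE 0.17) and by 0.14 with LA (SE 0.16).

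By stage, the Gclm estimates farthest from 0 were those of day 32 without FGF1. There the difference was −0.71 for DHA against BSA (SE 0.24, adjusted p = 0.98), in a comparison where 964 genes (4.56%) had an unadjusted p under 0.05 and 0 (0%) passed by edgeR, 11 by DESeq2 and 0 by limma voom. LA minus BSA was 0.22 (SE 0.24), with 1019 genes (4.82%) at an unadjusted p under 0.05. DHA against LA gave −0.93 (SE 0.24, adjusted p = 0.63), where 1173 genes (5.55%) had an unadjusted p under 0.05 and 0 (0%) passed by edgeR, 28 by DESeq2 and 0 by limma voom. With the replicate number as a block, 2 genes passed in DHA against LA and Gclm stayed at an adjusted p of 0.66. Over the other alternatives for DHA against LA its adjusted p ranged from 0.052 (no filter on low counts) to 1.00, and it passed in none of 23 leave-one-out fits (lowest 0.21) and none of 8 other settings. DHA libraries lay below every other library of their stratum for 1.37% of all genes, Gclm among them. With only the libraries the authors kept, the Gclm differences were −0.51 and −0.52. Without DHA replicate 1 of day 32 they were −0.42 and −0.62, with adjusted p-values of 1.00 and 0.87.

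At the other stages the DHA libraries were not all the lowest for Gclm. At day 26 it was 47.2 and 44.5 CPM in BSA, 49.9 and 41.4 in LA, and 34.2 and 47.1 in DHA, with all media overlapping. With FGF1 in the deeper libraries it was 44.2 and 46.2 CPM in BSA, 35.4 and 45.4 in LA, and 47.3 and 49.1 in DHA, so DHA lay highest by a small margin (as for 9.32% of all genes). Whether the media differed between the 3 stages was tested directly: Gclm had an adjusted p of 1.00 in edgeR, and 0 genes (0%) passed that test in edgeR, with 339 (1.6%) at an unadjusted p under 0.05, 4 called by DESeq2 and 1 by limma voom. Gclm overlaps Gm17494 on the other strand (median 10.7 CPM), and the strand setting of the counting is not given in the sources used here. Gm17494 was not separated from it.

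**Figure D4:**
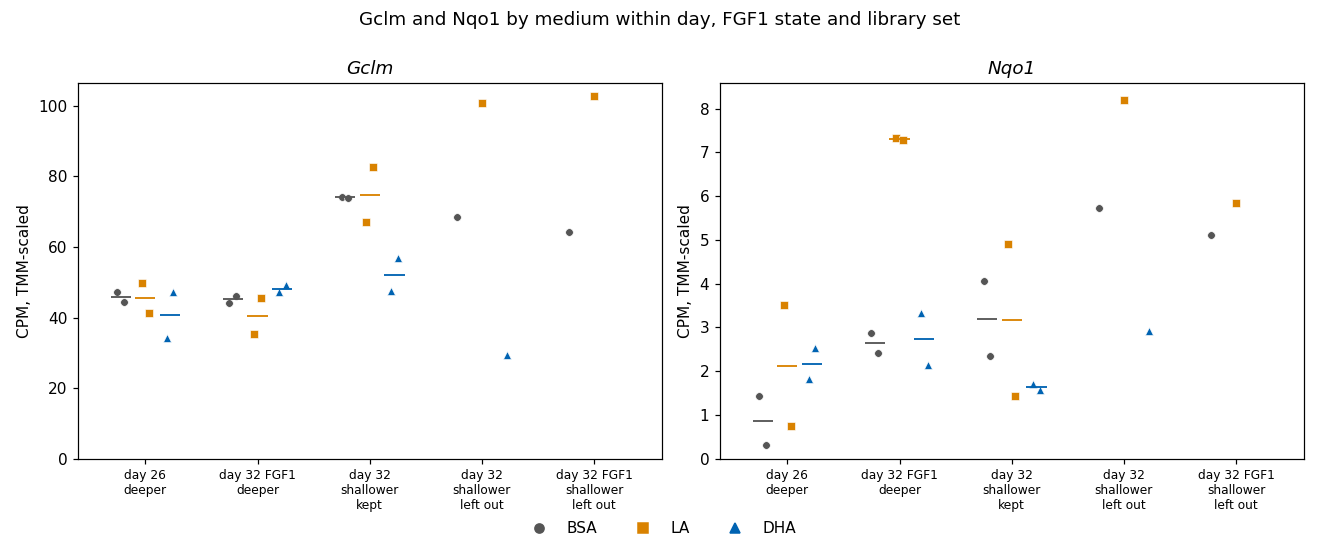
TMM-scaled CPM of Gclm and Nqo1 by medium in the 5 strata; each point is 1 library and short bars are means of 2. Gclm in DHA is 29.3, 47.4 and 56.8 CPM at day 32 without FGF1, below BSA and LA, and Nqo1 in LA with FGF1 is 7.33 and 7.29 CPM in the deeper libraries.

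With FGF1, Nqo1 in the deeper libraries was 2.88 and 2.42 CPM in BSA, 7.33 and 7.29 CPM in LA, and 3.32 and 2.15 CPM in DHA, and in the left-out pair 5.12 CPM in BSA and 5.83 CPM in LA. LA was thus highest in each stratum, as it was for 3.76% of all genes. The difference LA minus BSA was 1.05 (SE 0.55, adjusted p = 1.00) and DHA minus LA was −1.23 (SE 0.63, adjusted p = 1.00). In these comparisons 0 genes (0%) passed in edgeR, 360 (1.7%) and 755 (3.57%) had an unadjusted p under 0.05, DESeq2 called 1 and 31, and limma voom 3 and 4. At day 26 Nqo1 ranged from 0.31 to 1.42 CPM in BSA, 0.75 to 3.51 in LA and 1.83 to 2.52 in DHA, where LA overlapped with both. The day 26 estimates were 1.32 for DHA minus BSA (SE 0.72) and 1.28 for LA minus BSA (SE 0.72), with both fatty acids above BSA, and neither passed. At day 32 without FGF1 it was 5.73, 4.06 and 2.34 CPM in BSA, 8.19, 4.90 and 1.42 in LA, and 2.93, 1.71 and 1.56 in DHA, and DHA minus LA was −1.15 (SE 0.58, adjusted p = 0.87).

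Markers of connective tissue moved with LA in the same libraries. The 8 mesenchymal genes (such as Col1a1 and Dcn) summed to 134.8 and 463.5 CPM in the deeper LA libraries with FGF1, against 48.4 to 64.8 CPM in BSA and 36.5 to 72.0 CPM in DHA, and to 365.5 (BSA) and 490.9 CPM (LA) in the left-out pair. Over all strata 7 of these 8 genes had an unadjusted p under 0.05 for lower values in DHA than LA, none past adjustment, with a median of −1.66. At day 32 without FGF1, where Gclm was lowest in DHA, the mesenchymal sums were also lower in DHA than in BSA within each stratum, at 41.9 and 79.9 CPM against 137.8 and 161.9 CPM in the kept libraries and 150.9 against 170.9 CPM in the left-out ones. LA had 72.9 and 271.3 CPM in the kept libraries and 116.1 CPM in the left-out one, so that it overlapped with DHA in the former and was below it in the latter. Their part in the Nqo1 and Gclm values was not tested. In whole tissue, fewer cells of a type and less RNA per cell cannot be told apart.

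The remaining members gave little separation by medium. Srxn1 had a lower mean in DHA than in LA in each of the 4 strata that hold both (6.03% of genes did). The log2 differences ran from −1.04 (left-out libraries without FGF1, 1 a medium) to −0.08, and the estimate was −0.35 (SE 0.18). Txnrd1 had a higher mean in LA than in BSA in each of the 5 strata (3.43% of genes), with log2 differences from 0.12 to 0.30 and an estimate of 0.19 (SE 0.12). With FGF1, Gsr was lowest in LA in each stratum (3.81% of genes), at 10.3 and 13.3 CPM against 13.4 to 18.2 CPM in BSA and DHA of the deeper set, and Gpx1 was lowest in DHA (7.47% of genes), at 30.9 and 33.2 CPM against 35.3 to 46.4 CPM. At day 26, with 2 libraries a medium, 0 genes (0%) passed in any comparison by edgeR, DESeq2 or limma voom, and 111 (0.525%), 157 (0.743%) and 255 (1.21%) had an unadjusted p under 0.05 for the same 3 pairs. No member was among them.

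No regulator or partner gene passed between media either. Nfe2l2 differed by 0.15 for DHA against BSA (SE 0.09), by 0.01 for LA against BSA and by 0.14 for DHA against LA (SE 0.09). Keap1 (0.17, SE 0.17) and Bach1 (0.03, SE 0.12) did not pass either in DHA against LA. None of the 119 tested genes of the 8 partner lists passed for any pair of media. The smallest unadjusted p-values in DHA against LA were those of Selenop, the plasma selenium carrier (−0.70, SE 0.23, adjusted p = 0.96), and Mgst1, a microsomal glutathione transferase (−0.77, SE 0.26, adjusted p = 0.96). Ptgs2, the prostaglandin synthase often raised in ferroptosis, was at −0.89 (SE 0.38, adjusted p = 1.00) and the iron exporter Slc40a1 at −0.55 (SE 0.25, adjusted p = 1.00). Ptgs2 was scarce, with stratum means from 0.80 CPM (day 26) to 5.29 CPM (left-out libraries without FGF1).

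The contrast with clear changes was that of the deeper libraries at day 32 with FGF1 against day 26, in which 3656 of 21124 genes (17.3%) passed, 1884 higher (8.92%) and 1772 lower (8.39%). Age, FGF1 and the change of medium at day 26 cannot be told apart in it. Srxn1, Hmox1 and Gclc rose, and no member fell. The members' median was 0.36, against −0.01 for all genes.

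Srxn1 rose most among the members that passed. It was 8.71 to 20.8 CPM at day 26 (median 14.4) and 22.5 to 38.4 CPM with FGF1 (median 33.1), so every later library was above every earlier one. The log2 difference was 1.06 (SE 0.20, 95% interval 0.65 to 1.47), a 2.08-fold rise with an adjusted p of 5.9e-04 in edgeR. The lower DHA library of each stage (8.71 and 22.5 CPM) set the bottom of both ranges. Even so, the DHA libraries overlapped with those of BSA and of LA at both stages. At day 26 the mean log2 difference of DHA from BSA was 0.007. In the 6 kept libraries of day 32 without FGF1, Srxn1 was also at 23.9 to 32.3 CPM, but these belong to another library set and were not compared.

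Srxn1 lies on the plus strand of chromosome 2 (152105516 to 152111376), and its start region is shown because it holds an element of the kind that NRF2 binds with small Maf proteins. In chr2:152105274-152105523 the capitals mark the match to TGANTCAGC, a motif added to the search after the start regions had been read.
Srxn1: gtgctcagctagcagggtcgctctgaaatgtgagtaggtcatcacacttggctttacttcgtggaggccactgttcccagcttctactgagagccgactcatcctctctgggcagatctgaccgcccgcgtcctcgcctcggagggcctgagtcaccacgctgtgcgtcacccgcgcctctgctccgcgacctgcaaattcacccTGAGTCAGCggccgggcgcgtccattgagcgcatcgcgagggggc
The match, TGAGTCAGC, lies 45 to 37 bases before the start, and 1.02% of the 32851 start regions hold the motif. The same site can match both this motif and the antioxidant response element core where its free base is C. The sequence is the same in every library, and no binding was measured.

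Hmox1 rose by 0.89 on the log2 scale (SE 0.25, 95% interval 0.36 to 1.41), 1.85-fold, with an adjusted p of 0.018. Its libraries ranged from 12.8 to 24.3 CPM at day 26 and from 25.3 to 42.1 CPM with FGF1, again without overlap. Srxn1 and Hmox1 were the 2 members with this separation, which 7.56% of all genes showed. Hmox1 lost the call without BSA replicate 2 of day 26 (adjusted p = 0.052) and when library set was not a term (0.69, adjusted p = 0.13).

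Gclc rose by 0.39 (SE 0.13, 95% interval 0.11 to 0.66), 1.31-fold, with an adjusted p of 0.0496 that is at the threshold. It ranged from 37.8 to 47.9 CPM at day 26 and from 44.4 to 64.7 CPM later, with overlap. The call held in 9 of 23 fits that each left out 1 library, with adjusted p-values from 0.026 to 0.16. Nqo1 had the largest estimate, 1.18 (SE 0.42, 95% interval 0.30 to 2.05), and missed the threshold (adjusted p = 0.058). It passed in 6 of 9 other settings, the replicate block among them (1.24, adjusted p = 0.039), and in 3 of 23 fits that each left out 1 library, with adjusted p-values from 0.0021 to 0.13 over all of these. It was 0.31 to 3.51 CPM at day 26 and 2.15 to 7.33 CPM later, with overlap, and the 2 LA libraries with FGF1 were the highest.

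**Figure D5:**
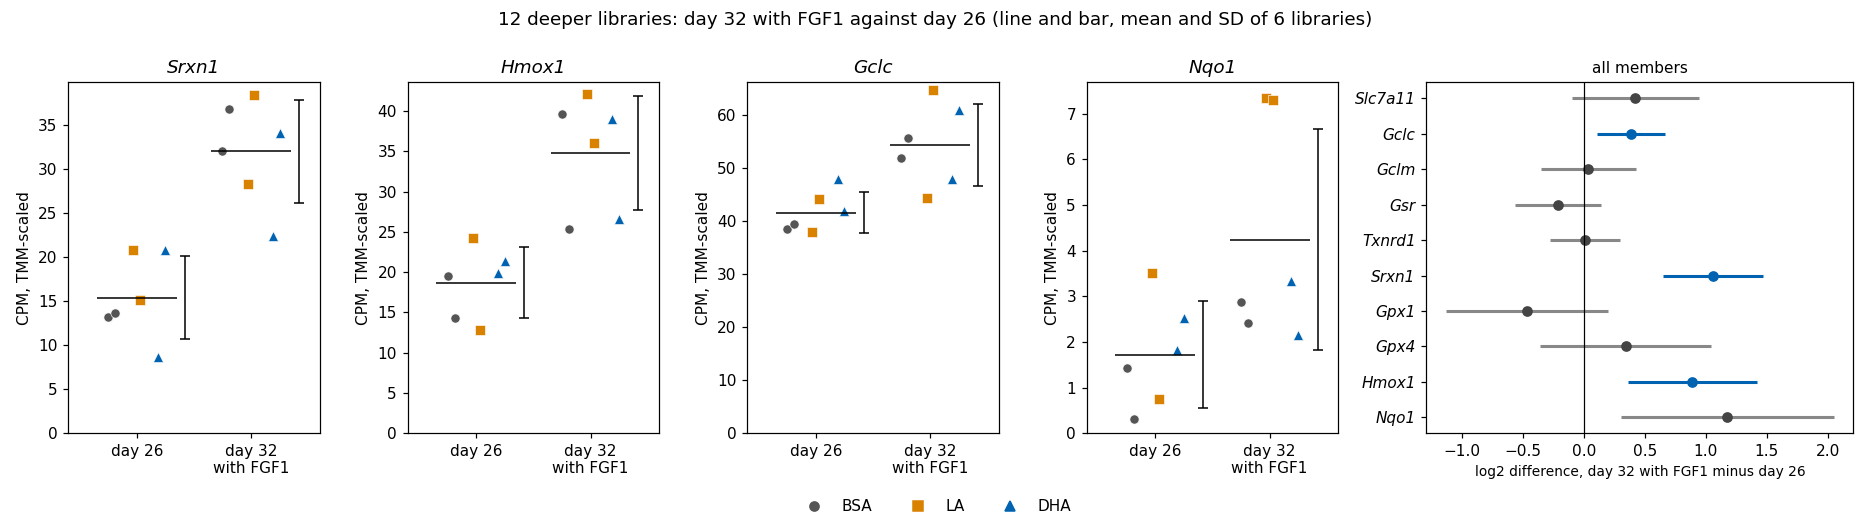
Left, TMM-scaled CPM of Srxn1, Hmox1, Gclc and Nqo1 in the 6 deeper libraries of day 26 and the 6 of day 32 with FGF1 (line, mean; bar, SD); right, edgeR log2 differences of all 10 members with 95% intervals, in blue where the adjusted p was under 0.05. Srxn1 (22.5 to 38.4 against 8.71 to 20.8 CPM) and Hmox1 (25.3 to 42.1 against 12.8 to 24.3 CPM) do not overlap between the days.

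The other 6 members did not pass in this contrast. Slc7a11 was at 0.42 (95% interval −0.10 to 0.95, adjusted p = 0.30) and Gpx4 at 0.34 (−0.36 to 1.04, adjusted p = 0.58). Gclm (0.04, −0.35 to 0.43) and Txnrd1 (0.01, −0.28 to 0.30) were near 0, so a difference of 1 log2 unit lies outside their intervals. Gsr was at −0.21 (−0.56 to 0.14, adjusted p = 0.47). Gpx1 was at −0.47 (−1.13 to 0.20, adjusted p = 0.38), with 40.5 to 64.2 CPM at day 26 and 30.9 to 46.4 CPM later. Gpx1 passed when the 12 deeper libraries were fitted alone (−0.45, adjusted p = 0.020) and in limma voom (−0.46, adjusted p = 0.0096).

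Among the regulators, Nfe2l2 itself rose by 0.54 (SE 0.09, adjusted p = 2.6e-04), from 28.8 to 36.4 CPM at day 26 to 42.2 to 57.5 CPM, without overlap. Keap1 was at 0.09 (SE 0.19) and Bach1, which represses Hmox1, at −0.37 (SE 0.13, adjusted p = 0.052), and neither passed. Of the 24 other NRF2 target genes, 2 rose and 3 fell, with a median of 0.00. Among all genes 8.92% rose and 8.39% fell in this contrast, and these shares apply to each list below too. Those that rose were the glutathione conjugate exporter Abcc1 (0.65, SE 0.11, adjusted p = 2.4e-04) and malic enzyme Me1 (0.44, SE 0.13, adjusted p = 0.027). Idh1 (−0.59, SE 0.12) and the glutathione transferase Gstm5 (−0.60, SE 0.15) fell.

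In glutathione and cysteine supply, 3 of 14 tested genes rose and 1 fell, with a median of 0.21. Slc3a2, the heavy chain that pairs with Slc7a11, rose by 0.47 (SE 0.13, adjusted p = 0.016), the taurine transporter Slc6a6 by 0.46 (SE 0.11, adjusted p = 0.0070), and Cbs, which makes cystathionine on the way to cysteine, by 1.87 (SE 0.38, adjusted p = 0.0014). Glutaredoxin (Glrx) fell by 0.64 on the log2 scale. Of the 15 ATF4 genes, 3 rose and 1 fell, with a median of 0.20: Atf3 rose by 1.67 (SE 0.19, adjusted p = 2.0e-06), Atf4 by 0.51 (SE 0.11, adjusted p = 0.0018) and Vldlr by 0.49 (SE 0.11, adjusted p = 0.0036), and Ddit4 fell by 0.84.

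Of 21 peroxiredoxins, thioredoxins, superoxide dismutases and catalase, 1 rose and 4 fell, with a median of −0.20, where 8.92% of all genes rose and 8.39% fell. Prdx6, which reduces phospholipid peroxides with glutathione, rose by 0.83 (SE 0.19, adjusted p = 0.0035). Txnip, the thioredoxin inhibitor, fell by 1.07 (SE 0.19, adjusted p = 4.2e-04), as did Prdx4 (−0.59, SE 0.14) and Txn1 (−0.59, SE 0.16). In the ferroptosis list 3 of 20 rose and 0 fell, with a median of 0.07. These were Slc40a1, which exports iron (1.46, SE 0.28, adjusted p = 6.7e-04), Sat1, a polyamine acetylase (0.63, SE 0.14, adjusted p = 0.0021), and Mboat1, a lysophospholipid acyltransferase (0.59, SE 0.18, adjusted p = 0.025). Of the 3 other glutathione peroxidases tested, Gpx8 rose (0.61, SE 0.17, adjusted p = 0.016). In selenocysteine incorporation 1 of 11 rose, Selenop (1.65, SE 0.26, adjusted p = 9.8e-05), and 3 fell: Trnau1ap (−0.61, SE 0.16), Lrp8, the receptor of selenoprotein P (−0.37, SE 0.10), and Sephs1 (−0.39, SE 0.12).

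Cell type markers moved in the same contrast. Of the rod markers 6 of 8 rose (median 1.05), of the Müller glia markers 4 of 8 rose (median 1.31), and of the 7 progenitor markers 4 fell and 1 rose (median −1.0). The summed Müller glia level was 892.3 to 1383 CPM at day 26 and 1498 to 2388 CPM with FGF1, and the summed rod level 2525 to 4072 and 5125 to 9254 CPM. The summed pigment epithelium level was 50.3 to 247.5 and 287.8 to 391.1 CPM, while the median of its 6 tested genes was −1.64 and 1 of them rose. Rlbp1 belongs to this list and to the Müller glia list, so the sum is not specific to pigment epithelium. The part of cell makeup in the rises of Srxn1, Hmox1 and Gclc was not tested.

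FGF1 could be compared with its absence in 1 library set only, the left-out libraries, with 2 samples against 3. No gene passed: 0 of 21124 (0%) in edgeR, with 1536 (7.27%) at an unadjusted p under 0.05, 22 called by DESeq2 and 0 by limma voom. Srxn1, Hmox1 and Gclc were at 0.41 (95% interval −0.24 to 1.06), 0.03 (−0.82 to 0.88) and 0.36 (−0.08 to 0.81). For 2 members the unadjusted p was under 0.05. Txnrd1 was higher with FGF1 by 0.64 (SE 0.22, adjusted p = 0.61), at 100.5 (BSA) and 123.9 CPM (LA) against 77.3 (BSA), 88.9 (LA) and 50.2 CPM (DHA). Slc7a11 was higher by 0.81 (SE 0.39, adjusted p = 0.68). Its log2 CPM with and without FGF1 was 5.71 and 4.71 in BSA, and 5.99 and 5.73 in LA. DHA replicate 1, the low library described above, had no DHA partner with FGF1 in this set. The fit adjusts for medium only by differences averaged over strata, which for Txnrd1 in DHA minus BSA was 0.13. Among the left-out libraries without FGF1 that difference was −0.62, so the FGF1 estimates rest in part on this library.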

How the data were processed

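RNA from neural retina of mouse organoids was sequenced as directional mRNA libraries, 23 in all. Per the submitters' processing notes, reads were trimmed with Trimmomatic 0.36 and quantified with kallisto 0.45.0 on GRCm38.p6, and edgeR was used. The deposited gene table (52143 genes) and transcript table (136550 transcripts) hold expected counts made by the authors. The deposited normalised table holds a signal, CPM scaled by the authors, for 18 libraries, and supplied gene names. The strand setting of the counting is not given in the sources used here.

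Expected counts were rounded and filtered by group (21124 genes tested); edgeR 4.0.16's quasi-likelihood test was run with TMM scaling and Benjamini-Hochberg adjustment over all genes and a threshold of 0.05. One model held stratum and medium (16 residual degrees of freedom) and another medium within each stage (12). Standard errors and 95% intervals were derived from the F statistic and are approximate. Log2 CPM used a prior count of 2. GC content came from GENCODE M21 transcripts. DESeq2 1.42.0, limma 3.58.1 and other settings, 32 in all, were run as alternatives, and the scripts were tested on simulated data. The fits ran in R 4.3.3 and the tables in Python 3.11.15.

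The members and gene lists were chosen with earlier results of these data known. All members were named, as were Nfe2l2, Keap1 and Bach1; from each other list at most 4 genes past the threshold in a comparison were named by smallest p, and otherwise up to 2 by unadjusted p. Transcripts were named at 10% or more of a gene's counts. Replicate counts differed by more than sampling noise (chi-square per degree of freedom 11.9 to 265.2), so none were merged. Same-numbered LA and DHA samples of day 32 without FGF1 deviated together (r = 0.23, 0.55 and 0.35). The same-numbered BSA samples there did not, at r = −0.07, −0.30 and 0.19 with DHA and 0.09, −0.20 and 0.19 with LA. With FGF1, BSA and LA samples had r = 0.71, 0.69 and 0.83, in groups that span library sets. The DHA samples with FGF1 were at 0.21 and 0.11 with BSA and 0.16 and −0.02 with LA. All of these are deviations from group means. As deviations within strata, r was 0.22 for BSA and LA with FGF1 and 0.53 for LA and DHA without it. The replicate number was used as a block in an alternative setting only, and the main fits hold no pairing. The labels do not say what a number marks.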

Additional observations from a re-analysis of the deposited data

How the results depend on the processing

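Of 4750 member values under 32 alternative settings, 4611 kept their side of the threshold and moved by no more than 1 standard error, 106 moved further, 12 passed the threshold newly, 19 no longer passed and 2 reversed. A reversal was counted where either value passed; 281 other sign changes were between values that did not pass. With no term for library set, FGF1 against none gave 9975 genes, and Gpx1 and Gpx4 reversed to 1.82 and 1.31; by construction that setting compares library sets too. Counts of genes without a filter on low counts were 81, 169 and 228 for DHA minus BSA, LA minus BSA and DHA minus LA within strata, 24, 31 and 26 at day 26, 143, 132 and 206 at day 32 without FGF1, 42, 113 and 157 with FGF1, 273 for the interaction and 242 for FGF1 against none. DESeq2 gave 3, 4 and 3 within strata, 11, 8 and 28 without FGF1, 1, 1 and 31 with FGF1, 4 for the interaction and 22 for FGF1 against none. Limma voom gave 7074 genes between the days, 1 for LA minus BSA without FGF1, 3 and 4 for LA minus BSA and DHA minus LA with FGF1, and 1 for the interaction. The replicate block gave 2 genes each for DHA minus BSA and DHA minus LA without FGF1 and 2 for the interaction, and it changed no call of a member in the comparisons of media. The 18 kept libraries gave 1 gene for DHA minus BSA without FGF1 and 1 for LA minus BSA with FGF1. The 12 deeper libraries alone gave 6258 genes between the days, and 3 and 2 for LA minus BSA and DHA minus LA with FGF1. GC offsets gave 1 gene for FGF1 against none. Leaving out 1 library at a time gave 0 to 1 gene for LA minus BSA within strata, 0 to 64 for DHA minus BSA at day 32 without FGF1 (64 without DHA replicate 2), 0 to 5 for DHA minus LA there (5 without DHA replicate 3), 0 to 4 for the interaction (4 without that same library), 2921 to 4345 between the days and 0 to 1 for FGF1 against none. Except where stated, the cause was not tested. Nqo1, with as few as 6.01 estimated counts in a library, is the member most limited by depth.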
